A study of Mus musculus with 15 samples.

Results

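Ephrins, Eph receptors, Slits, Robo receptors, netrins and the netrin receptors Dcc, neogenin and Unc5 are the cue and receptor families of axon guidance described here, in cells of a mouse melanoma line. They were the rows of the raw count table whose GENCODE M21 gene symbol named such a ligand or receptor, 38 genes of 46078 in the table. In all, 39 symbols of the annotation fitted the names, and the remaining one, Ntn3, was not matched to the table and is not analysed here. The 38 genes were 5 ephrin-A ligands, 3 ephrin-B ligands, 9 EphA receptors, 5 EphB receptors, 3 Slits, 4 Robos, 3 netrins and 6 netrin receptors.

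The cells were B16-F10, a pigmented line derived from a C57BL/6 mouse melanoma, and 15 RNA-seq libraries fell into 5 groups of 3. In one arm the cells received DMSO as the vehicle, 2 µM GSK126, which blocks the methyltransferase site of EZH2, or 2 µM DZNep, an inhibitor of S-adenosylhomocysteine hydrolase. In the other arm they received a scrambled control (scr) or the Ezh2 knockdown (siEzh2). EZH2 is the catalytic subunit of Polycomb repressive complex 2, which methylates histone H3. No allele or genotype other than that of the line is given for any group, and all groups are 1 cell line. The time of treatment is not given in the sources used here, and no source says that replicates were separate cultures. The p-values therefore rest on the scatter among these libraries, part of which may be technical.

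Library totals lay between 33299524 and 64545747 counts, so that 1 count was worth 0.0154 to 0.0306 CPM, the count per 1 000 000 counts of the library. Ezh2 itself stood at 39.6 ± 1.87 CPM with siEzh2 and 219 ± 6.59 in scr (SD, n = 3), and at 207 ± 2.66 in DMSO, 155 ± 5.06 with DZNep and 214 ± 6.81 with GSK126. All 9 pigment cell markers were above 1 CPM in each group, with a summed level between 24000 and 37000 CPM over the libraries. The summed levels of the other marker lists were 17.9 to 24.0 CPM for fibroblasts, 3.09 to 7.26 CPM for neurons, 3.73 to 8.60 CPM for blood cells and at most 0.0466 CPM for keratinocytes. Endothelial markers summed to 1.70 to 2.44 CPM in scr, 4.70 to 5.45 with GSK126, 5.40 to 7.56 in DMSO, 10.9 to 12.2 with siEzh2 and 12.3 to 12.9 with DZNep. Vwf led that list in each group, while Cdh5 and Cldn5 were at 0 in all 15 libraries. Snap25 was at 0 in 4 of the 5 groups and Stmn2 in all, among neuron markers, and Thy1 was at 0 in all 5 groups among those of fibroblasts. Other members of these lists were present: 3 to 4 of 9 fibroblast markers had a mean of at least 1 CPM in each group, led by Pdgfra or Col1a2. So had 1 to 2 of 7 neuron markers, led by Syp, and 2 of 7 blood cell markers, led by Cd68. The part of these markers in the results was not tested. The label number of GSK126 replicate 1 adjoins those of scr and siEzh2, while those of the other GSK126 libraries adjoin those of DMSO and DZNep. What that number marks was not given in the sources used here, and results with GSK126 are given with that library and, where leaving it out ends a call, without it. In bulk RNA, fewer cells that express a gene and less RNA per cell cannot be told apart.

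As background, ephrins are cell surface ligands, tied to the membrane by a lipid anchor in the A class and by a transmembrane segment in the B class, and they bind Eph receptor tyrosine kinases on a neighbouring cell. Signals run both into the receptor cell and back into the ligand cell, and steer repulsion, adhesion and tissue boundaries. Slits are large secreted proteins that repel cells through Robo receptors. Netrins are secreted laminin-like proteins that attract through Dcc and neogenin and repel through Unc5 receptors. All of these families also act outside the nervous system, in vessels, in neural crest migration and in tumours, and melanocytes derive from the neural crest.

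The 250 bases upstream of the transcription start are given for 7 genes, in the reference sequence of RefSeq (GRCm38.p6) and 5′ to 3′ on the gene's strand. The genes were chosen by the size of their change, among those with a mean of at least 1 CPM in some group and a RefSeq window. They had the 3 largest called changes with GSK126 (Epha7, Robo2, Epha3), DZNep (Epha1, Robo2, Slit2) or siEzh2 against scr (Epha5, Unc5b, Robo2). A link between these sequences and the changes was not tested. Capitals mark CpG dinucleotides.
Epha7 (chr4:28812881-28813130, plus strand): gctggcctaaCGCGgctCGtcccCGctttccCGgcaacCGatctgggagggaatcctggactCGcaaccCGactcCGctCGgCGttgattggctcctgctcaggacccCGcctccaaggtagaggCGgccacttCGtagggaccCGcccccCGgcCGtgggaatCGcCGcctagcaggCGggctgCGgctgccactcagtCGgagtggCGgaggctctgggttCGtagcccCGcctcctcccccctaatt
Robo2 (chr16:74411826-74412075, minus strand): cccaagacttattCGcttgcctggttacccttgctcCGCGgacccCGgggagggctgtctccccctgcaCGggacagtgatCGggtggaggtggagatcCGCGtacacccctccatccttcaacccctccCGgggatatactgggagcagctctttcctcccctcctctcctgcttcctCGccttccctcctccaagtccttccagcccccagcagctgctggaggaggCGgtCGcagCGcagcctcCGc
Epha3 (chr16:63864176-63864425, minus strand): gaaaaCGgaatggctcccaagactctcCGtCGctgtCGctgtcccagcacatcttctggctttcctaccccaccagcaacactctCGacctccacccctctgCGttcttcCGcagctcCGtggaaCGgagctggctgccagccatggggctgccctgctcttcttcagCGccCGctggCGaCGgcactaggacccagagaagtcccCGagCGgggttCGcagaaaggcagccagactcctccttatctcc
Epha1 (chr6:42373269-42373518, minus strand): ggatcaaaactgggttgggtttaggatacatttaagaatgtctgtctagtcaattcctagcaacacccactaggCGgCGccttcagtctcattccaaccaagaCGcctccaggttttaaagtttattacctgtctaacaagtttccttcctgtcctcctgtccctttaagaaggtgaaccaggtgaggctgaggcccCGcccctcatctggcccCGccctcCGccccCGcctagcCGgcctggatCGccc
Slit2 (chr5:47982905-47983154, plus strand): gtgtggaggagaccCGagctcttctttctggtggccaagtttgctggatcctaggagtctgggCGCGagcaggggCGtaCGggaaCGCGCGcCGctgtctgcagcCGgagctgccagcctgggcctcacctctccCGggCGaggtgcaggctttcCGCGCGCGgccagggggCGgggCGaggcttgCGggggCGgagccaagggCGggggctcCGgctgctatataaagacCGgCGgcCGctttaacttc
Epha5 (chr5:84417383-84417632, minus strand): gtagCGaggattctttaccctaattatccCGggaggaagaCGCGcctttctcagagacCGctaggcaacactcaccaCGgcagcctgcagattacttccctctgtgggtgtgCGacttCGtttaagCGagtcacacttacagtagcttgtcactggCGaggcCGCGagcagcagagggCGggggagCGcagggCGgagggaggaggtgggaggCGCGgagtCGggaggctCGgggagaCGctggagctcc
Unc5b (chr10:60831582-60831831, minus strand): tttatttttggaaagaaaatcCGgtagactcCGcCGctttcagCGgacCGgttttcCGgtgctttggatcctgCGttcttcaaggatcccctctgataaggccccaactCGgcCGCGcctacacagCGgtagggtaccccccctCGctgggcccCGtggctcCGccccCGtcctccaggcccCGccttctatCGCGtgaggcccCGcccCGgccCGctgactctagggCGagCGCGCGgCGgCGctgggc

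These stretches held 25 CpG for Epha7, 14 for Robo2, 16 for Epha3, 9 for Epha1, 25 for Slit2, 20 for Epha5 and 27 for Unc5b. A RefSeq window of 250 bases before to 50 after the start was given for 33 of the 38 genes, and not for Ntn1, Efnb3, Slit1, Dcc and Unc5d. The Robo1 window lies 354842 bases inside the GENCODE gene, at the start of another transcript. The median over the 33 windows was 22 CpG and 65% G+C, against 7 CpG and 52.7% over 32851 mouse windows of the same length. The 8 genes with a window that rose with GSK126 had a median of 26 CpG, the 17 other tested genes had 22, and the 8 genes under the count filter had 18. Neo1 (54 CpG) and Epha8 (56 CpG) had the most and Robo4 (2 CpG) the fewest.

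Motif letters were searched on both strands of the same windows. CACGTG, an E-box, stood in 1 window (Epha8) of 33, against 7.15% of all windows. CATGTG, an E-box of the kind that MITF also binds, stood in 3 (Epha6, Ephb4 and Robo1), against 14.2%. TGANTCA, the AP-1 letters, stood in 0 of 33, against 7.81%. No window of the 33 held more than 1 of these motifs. A match is a description of the letters and not a site.

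In every class but the netrins, the same gene led in all 5 groups. Levels between genes are compared per kilobase of exon (RPKM, on the same scaled library sizes). Neo1 stood highest in DMSO with 29.7 ± 2.48 RPKM (SD, n = 3), followed by Epha3 with 22.5 ± 0.662, Efna5 with 18 ± 1.77, Unc5c with 10.9 ± 1.39, Ephb4 with 8.08 ± 1.01 and Robo1 with 5.69 ± 0.58 RPKM. The 3 libraries of Neo1 lay above those of Epha3, and those of Epha3 above those of Efna5. Below these came Efna4 with 2.49 ± 0.366 and Efnb1 with 2.09 ± 0.226 RPKM, whose spreads meet, and Unc5b (1.12 ± 0.119), Epha7 (1.02 ± 0.0694), Efnb3 (0.849 ± 0.189), Slit2 (0.822 ± 0.0511) and Efna2 (0.819 ± 0.0558), which also lay within each other's spread or next to it. The next gene was Epha4 with 0.756 ± 0.0847 RPKM, and all others were lower.

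Within a class, Epha3 made up 90.4% of the summed EphA level in DMSO, Ephb4 86.5% of the EphB level, Efna5 80.7% of the ephrin-A level and Efnb1 66.8% of the ephrin-B level. Slit2 made up 98.2% of the Slit level, Robo1 98.7% of the Robo level and Neo1 70.8% of the netrin receptor level. The cells carried transcripts of ligands and receptors of the Eph and the Slit families together. The netrin sum was low, at 0.183 ± 0.0507 RPKM against 42.0 ± 3.96 for the netrin receptors, and Ntn4 made up 68.9% of it.

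**Figure D1:**
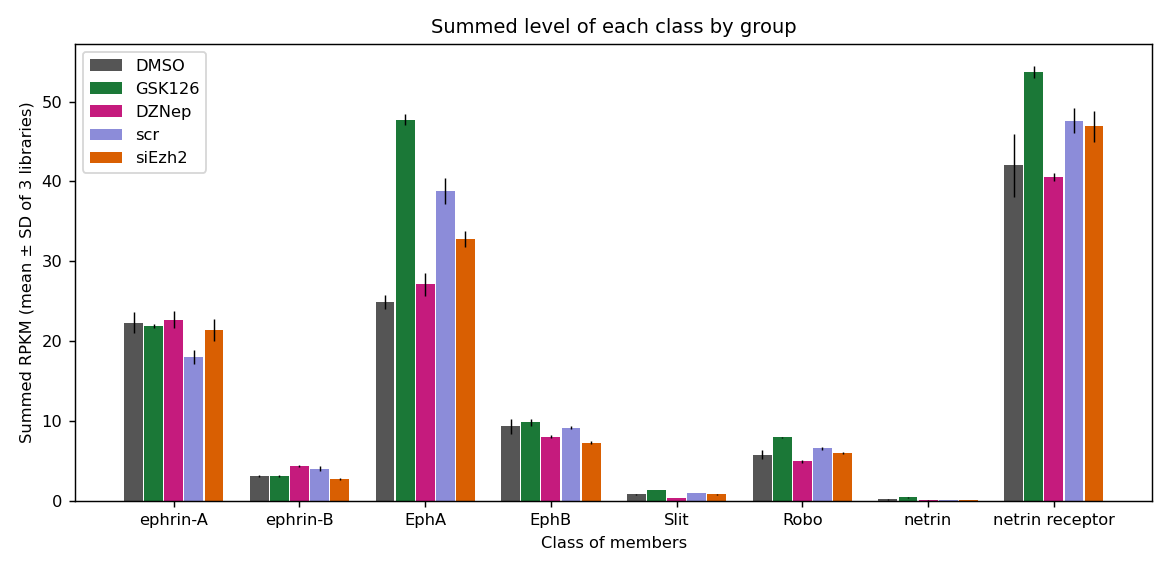
Summed RPKM of each class (vertical axis, mean ± SD of 3 libraries) in the 5 groups. The EphA bar is 24.9 RPKM in DMSO, 27.1 with DZNep, 32.8 with siEzh2, 38.8 in scr and 47.7 with GSK126, and the netrin bars are close to 0 in all groups.

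**Figure D2:**
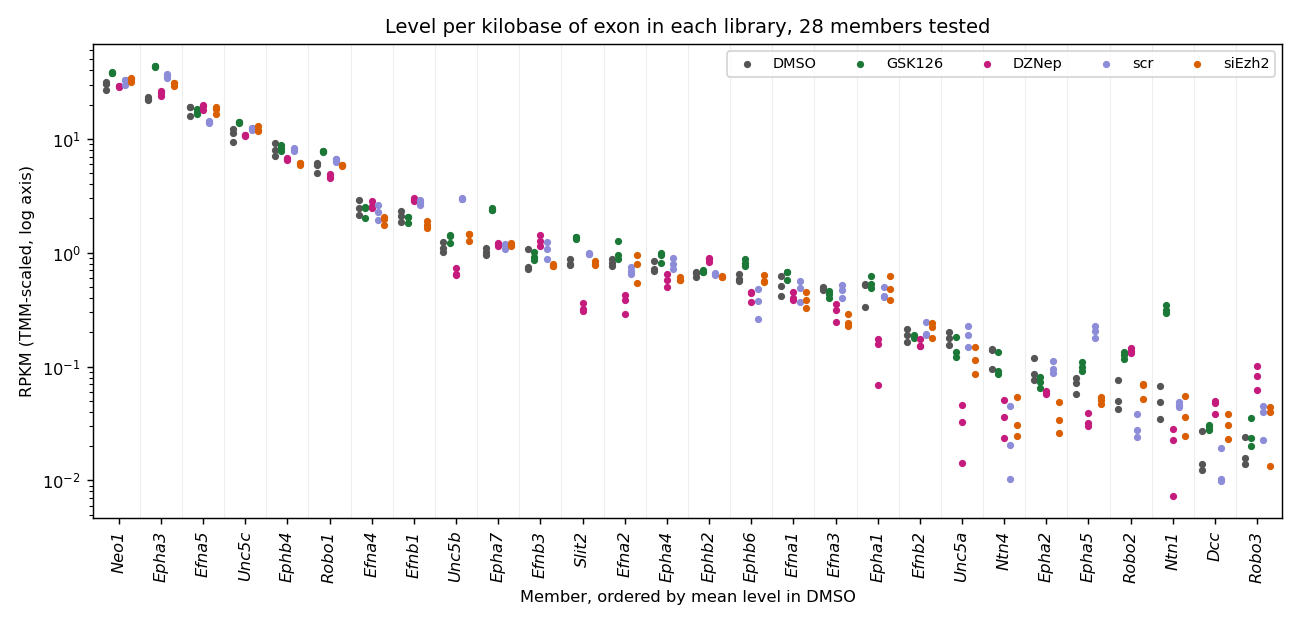
RPKM of the 28 tested genes in each of the 15 libraries (points, coloured by group, log axis), ordered by the mean in DMSO. Neo1, Epha3 and Efna5 lead, and Ntn1 with GSK126 and Unc5a and Slit2 with DZNep stand clear of the other groups.

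Of the 38 genes, 28 passed the count filter and were tested with all 15152 genes that did. GSK126 against DMSO called 9 of 28 (32.1%) at an adjusted p under 0.05, all higher, where 12.7% of all tested genes were called, 7.15% higher and 5.54% lower. None was called lower by edgeR: 0 genes were lower at an unadjusted p under 0.05, and 0 by DESeq2. The median log2 fold change of the 28 was 0.29, against −0.009 for all genes. The share of all genes called with GSK126 moved between 7.70% and 16.2% when 1 library was left out. It was 7.99%, 7.70% and 7.82% without GSK126 replicates 1, 2 and 3, 8.04% without DMSO replicate 3, and 7.80% when the fit held those groups alone. Those settings called 8 to 13 of the 28 genes. Without GSK126 replicate 1, whose label number stands apart, 8 of the 9 genes kept their call and Epha5 lost it (adjusted p = 0.112).

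DZNep against DMSO called 22 of 28 (78.6%), 8 higher and 14 lower, where 62.3% of all genes were called, 31.2% higher and 31.0% lower. The median of the 28 was −0.27, against 0.002 for all genes. With siEzh2 against scr 15 of 28 (53.6%) were called, 4 higher and 11 lower, where 26.1% of all genes were, 13.2% higher and 12.9% lower. The median was −0.22, against −0.011. The control groups themselves differed: scr against DMSO called 10 of 28 (35.7%), 6 higher and 4 lower, where 25.9% of all genes were, 12.2% higher and 13.6% lower. With library totals alone, 2240 of 3829 genes called in scr against DMSO were higher, in place of 1854 of 3920. GSK126 and DZNep share the DMSO libraries as control, and the siEzh2 and scr comparisons share the scr libraries, so none of these counts is independent of the next.

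**Figure D3:**
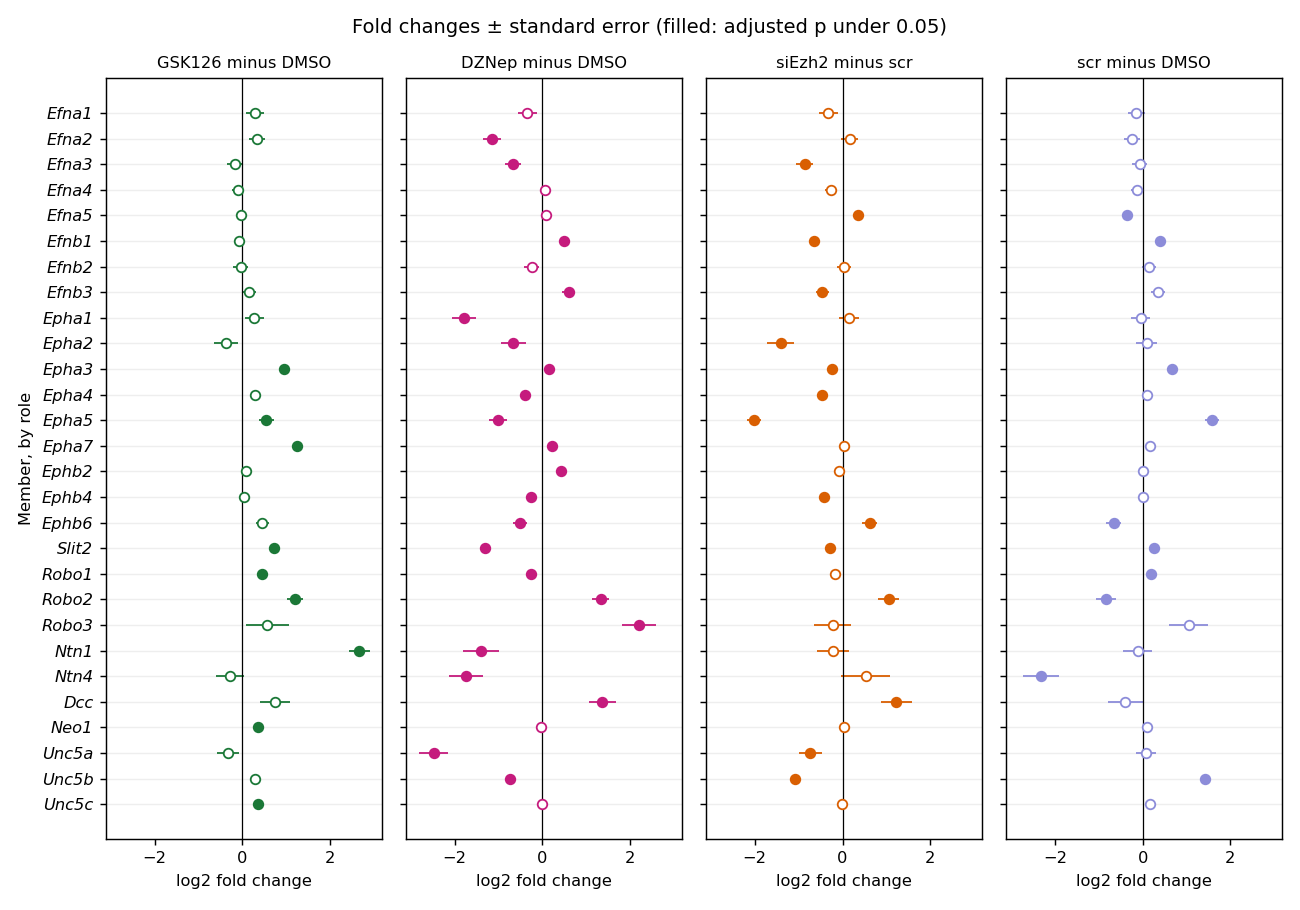
Log2 fold change (horizontal axis, ± standard error) of each tested gene, by role, in 4 comparisons. Filled points are called at an adjusted p under 0.05. The GSK126 panel has 9 filled points, all to the right of 0, and Unc5b and Epha5 lie to the left of 0 with siEzh2 and to the right of 0 in scr.

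Among ephrin-A ligands, GSK126 called 0 of 5 (0 at an unadjusted p under 0.05, and 0 by DESeq2), DZNep lowered Efna2 and Efna3, and siEzh2 against scr lowered Efna3 and raised Efna5. Efna5, the leading ephrin-A (ENSMUSG00000048915, chromosome 17, 62604184 to 62881317, minus strand), read 76.7, 76.8 and 64.4 in DMSO, 73.4, 70.2 and 67.5 with GSK126, 72.2, 79.2 and 78.1 with DZNep, 58.2, 55.4 and 56.7 in scr, and 74.4, 67.3 and 77 with siEzh2 (CPM in replicates 1, 2 and 3). The scr libraries were the low ones, below every library of the other 4 groups. Against scr the siEzh2 libraries were 1.28-fold higher (log2 0.36 ± 0.07, adjusted p = 0.000409), and scr was 1.28-fold below DMSO (−0.35 ± 0.07, adjusted p = 0.000526). Against DMSO, siEzh2 was at 0.01 ± 0.07 (adjusted p = 0.958). The log2 fold change was −0.04 ± 0.07 with GSK126 (adjusted p = 0.728) and 0.08 ± 0.07 with DZNep (adjusted p = 0.322).

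Efna2 (ENSMUSG00000003070, chromosome 10, 80179482 to 80190010, plus strand) read 1.63, 1.75 and 1.86 in DMSO, 1.88, 2.05 and 2.72 with GSK126, 0.62, 0.906 and 0.815 with DZNep, 1.46, 1.4 and 1.6 in scr, and 1.71, 1.17 and 2.06 with siEzh2 CPM. The DZNep libraries lay below all others, and the fall from DMSO was 2.22-fold (log2 −1.15 ± 0.21, adjusted p = 8.61e-05). The GSK126 libraries lay just above those of DMSO, at 0.34 (adjusted p = 0.225), which did not pass. Efna3 read 1.22, 1.19 and 1.16 in DMSO, 0.965, 1.13 and 1.05 with GSK126, 0.767, 0.596 and 0.86 with DZNep, 1.16, 0.975 and 1.26 in scr, and 0.55, 0.583 and 0.708 with siEzh2 CPM. Both the DZNep and the siEzh2 libraries lay below DMSO and scr, at −0.67 ± 0.18 with DZNep (adjusted p = 0.0033) and −0.86 ± 0.19 with siEzh2 against scr (adjusted p = 0.00229). Against DMSO siEzh2 was at −0.93 ± 0.19 (adjusted p = 0.00245), so Efna3 was lower with either control. Efna3 shares 344 bases of exon with Gm15998 on the other strand, and without a stated strand setting reads there cannot be told apart. Gm15998 read 2.16 CPM in DMSO and 3.27 with DZNep, a rise where Efna3 fell (log2 0.60, adjusted p = 0.000366). It read 2.55 CPM in scr and 1.93 with siEzh2, a fall alongside that of Efna3 (−0.39, adjusted p = 0.0378). The part of shared reads in the DZNep and the siEzh2 calls of Efna3 was not tested.

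Efna1, Efna3 and Efna4 lie next to each other on chromosome 3 between 89271733 and 89338028. Efna4 read 3.44, 3.91 and 4.6 in DMSO, 3.22, 4.03 and 3.99 with GSK126, 3.95, 4.12 and 4.55 with DZNep, 4.24, 3.11 and 3.65 in scr, and 3.3, 3.17 and 2.81 with siEzh2 CPM, and its groups overlapped in all 4 comparisons. Efna1 read 0.765, 0.932 and 1.14 in DMSO, 1.23, 1.06 and 1.24 with GSK126, 0.738, 0.834 and 0.702 with DZNep, 1.04, 0.678 and 0.901 in scr, and 0.826, 0.709 and 0.594 with siEzh2 CPM, likewise with overlap in every one. Neither was called against its control, with log2 fold changes for Efna1 of 0.29 with GSK126, −0.34 with DZNep and −0.32 with siEzh2, and for Efna4 of −0.10, 0.07 and −0.26.

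Ephrin-B ligands carry an intracellular tail through which they signal back. None of the 3 was called with GSK126 (0 at an unadjusted p under 0.05, and 0 by DESeq2), while Efnb1 and Efnb3 rose with DZNep and fell with siEzh2 against scr. Efnb1 (ENSMUSG00000031217, chromosome X, 99136130 to 99148991, plus strand) read 6.41, 7.97 and 7.25 in DMSO, 7.16, 6.36 and 7.12 with GSK126, 10.1, 10.4 and 9.91 with DZNep, 9.12, 9.36 and 9.96 in scr, and 6.05, 6.54 and 5.69 with siEzh2 CPM. DZNep and scr were the high groups and siEzh2 the low one. The rise with DZNep was 1.41-fold (log2 0.49 ± 0.09, adjusted p = 5.56e-05), the scr level was 1.31-fold that of DMSO (0.39 ± 0.09, adjusted p = 0.00198), and siEzh2 was 1.55-fold below scr (−0.64 ± 0.09, adjusted p = 2.12e-05). Against DMSO the siEzh2 value was −0.24 ± 0.09 (adjusted p = 0.0799) and did not pass. The DZNep effect exceeded the siEzh2 effect by 1.13 ± 0.12 (adjusted p = 3.39e-07).

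Efnb3 read 3.39, 2.4 and 2.31 in DMSO, 2.92, 3.22 and 2.75 with GSK126, 4.51, 3.65 and 4.01 with DZNep, 3.43, 2.82 and 3.99 in scr, and 2.42, 2.46 and 2.51 with siEzh2 CPM. The DZNep libraries all lay above DMSO (0.60 ± 0.15, adjusted p = 0.00152), and the siEzh2 libraries, which differed little among themselves, lay below scr (−0.46 ± 0.15, adjusted p = 0.0315). The siEzh2 call was lost without scr replicate 1 (adjusted p = 0.0858), without scr replicate 3 (0.161), without siEzh2 replicate 1 (0.0796), without siEzh2 replicate 2 (0.0771) and without siEzh2 replicate 3 (0.0749). Against DMSO it was −0.12 (adjusted p = 0.677). Efnb2, a marker of arteries in other tissues, read 1.12, 1.47 and 1.29 in DMSO, 1.26, 1.22 and 1.29 with GSK126, 1.03, 1.05 and 1.2 with DZNep, 1.31, 1.33 and 1.7 in scr, and 1.22, 1.65 and 1.53 with siEzh2 CPM, with overlap in all 4 comparisons, and it was called in none of them.

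Of EphA receptors, 3 of 6 tested rose with GSK126 (Epha3, Epha7 and Epha5), 2 rose and 4 fell with DZNep, and 4 fell with siEzh2 against scr. Epha3, the leading receptor (ENSMUSG00000052504, chromosome 16, 63543534 to 63864175, minus strand), is a kinase that binds ephrin-A5, the product of the leading ephrin-A gene of these cells. It read 196, 201 and 190 in DMSO, 384, 382 and 373 with GSK126, 230, 218 and 206 with DZNep, 299, 318 and 323 in scr, and 271, 254 and 268 with siEzh2 CPM. The GSK126 libraries were highest, those of scr and siEzh2 came between, and those of DMSO were lowest, with no overlap between DMSO and any group. GSK126 raised Epha3 1.94-fold (log2 0.95 ± 0.05, adjusted p = 1.28e-10), and scr was 1.6-fold above DMSO (0.68 ± 0.05, adjusted p = 9.11e-09). In siEzh2 it was 1.19-fold below scr (−0.25 ± 0.05, adjusted p = 0.0012) and yet 1.35-fold above DMSO (0.43 ± 0.05, adjusted p = 1.15e-05), so the direction with siEzh2 turned with the control. The rise with DZNep was 1.11-fold (0.15 ± 0.05, adjusted p = 0.0136) and was lost without DZNep replicate 1 (adjusted p = 0.0851), with no low-count filter (0.0516) and in a fit of the compared groups alone (0.0631).

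Epha7 (ENSMUSG00000028289, chromosome 4, 28813131 to 28967499, plus strand) also rose with GSK126. It read 9.99, 10.8 and 9.47 in DMSO, 24.2, 23.4 and 23.6 with GSK126, 12, 11.4 and 11.8 with DZNep, 10.6, 11.8 and 11.7 in scr, and 11.4, 12 and 11.5 with siEzh2 CPM, so the GSK126 libraries were about the same among themselves and above each of the other 12. The rise was 2.35-fold (log2 1.24 ± 0.07, adjusted p = 1.26e-10). With DZNep it was 1.16-fold (0.22 ± 0.07, adjusted p = 0.0101), a call that did not hold without DMSO replicate 3 (adjusted p = 0.0554), with no low-count filter (0.0517) and in a fit of the compared groups alone (0.0544). The siEzh2 libraries overlapped those of scr (0.03, adjusted p = 0.766). The siEzh2 effect minus the GSK126 effect was −1.2 ± 0.10 (adjusted p = 1.87e-08).

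Epha5 (ENSMUSG00000029245, chromosome 5, 84054761 to 84417382, minus strand) was set apart in scr. It read 1.34, 1.19 and 0.955 in DMSO, 1.82, 1.68 and 1.53 with GSK126, 0.531, 0.501 and 0.656 with DZNep, 3.43, 3.79 and 2.99 in scr, and 0.856, 0.912 and 0.777 with siEzh2 CPM, and the scr libraries lay above all 12 others. Compared with scr, siEzh2 was 4.02-fold lower (log2 −2.01 ± 0.16, adjusted p = 1.29e-08), and scr was 2.99-fold above DMSO (1.58 ± 0.15, adjusted p = 1.43e-07). Against DMSO the siEzh2 value was −0.43 ± 0.18 (adjusted p = 0.128), which did not pass. DZNep lowered Epha5 2.01-fold (−1.01 ± 0.20, adjusted p = 0.000179). The rise with GSK126 (1.47-fold, 0.55 ± 0.16, adjusted p = 0.0302) was lost without DMSO replicate 2 (adjusted p = 0.0505), without DMSO replicate 3 (0.183), without GSK126 replicate 1 (0.112), without GSK126 replicate 2 (0.0823), in a fit of the compared groups alone (0.0817) and by DESeq2 (0.0532).

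Epha1 fell with DZNep and was not called with GSK126 or siEzh2. It read 2.1, 2.03 and 1.31 in DMSO, 2.47, 1.91 and 2.07 with GSK126, 0.679, 0.62 and 0.272 with DZNep, 1.6, 1.95 and 1.65 in scr, and 2.45, 1.88 and 1.51 with siEzh2 CPM, so that the DZNep libraries lay below all others. The fall was 3.46-fold (log2 −1.79 ± 0.28, adjusted p = 1.42e-05). Epha1 shares 236 bases of exon with Zyx on the other strand, and Zyx stood at 227 CPM in DMSO and 247 with DZNep, so part of the Epha1 reads is uncertain. Zyx itself had a log2 fold change of 0.12 with DZNep (adjusted p = 0.11).

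Epha4, which binds ephrins of both classes, read 6.86, 5.82 and 5.58 in DMSO, 6.52, 7.99 and 7.68 with GSK126, 4.66, 5.24 and 4.01 with DZNep, 5.78, 7.29 and 6.43 in scr, and 4.68, 4.89 and 4.61 with siEzh2 CPM. It was lower with DZNep (−0.39 ± 0.12, adjusted p = 0.00797), a call lost without DZNep replicate 3 (adjusted p = 0.0587). With siEzh2 against scr it was lower as well (−0.46 ± 0.12, adjusted p = 0.00678), a call lost without scr replicate 2 (adjusted p = 0.0519), and against DMSO it was at −0.36 (adjusted p = 0.0499). Epha2, often studied in melanoma and epithelial tumours, was low, with 0.359, 0.559 and 0.4 in DMSO, 0.375, 0.299 and 0.34 with GSK126, 0.266, 0.286 and 0.272 with DZNep, 0.52, 0.445 and 0.412 in scr, and 0.122, 0.228 and 0.16 with siEzh2 CPM. The siEzh2 libraries were lowest and lay 2.66-fold below scr (−1.41 ± 0.31, adjusted p = 0.00188) and 2.5-fold below DMSO (−1.32 ± 0.31, adjusted p = 0.00707). The fall of Epha2 with DZNep (−0.66 ± 0.28, adjusted p = 0.047) was lost without DMSO replicate 2 (adjusted p = 0.211), without DMSO replicate 3 (0.0585), without DZNep replicate 1 (0.0948), without DZNep replicate 2 (0.0806), without DZNep replicate 3 (0.0996), with no low-count filter (0.129), with a replicate block (0.0539), in a fit of the compared groups alone (0.0702) and by DESeq2 (0.144).

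Ephb4, the leading EphB and the partner of ephrin-B2, fell in 2 comparisons. It read 33, 37.1 and 42.4 in DMSO, 36.6, 40.7 and 38.5 with GSK126, 31.8, 31 and 30.6 with DZNep, 37.9, 36.4 and 38.5 in scr, and 27.3, 28.5 and 28.7 with siEzh2 CPM (ENSMUSG00000029710, chromosome 5, 137350109 to 137378669, plus strand). The siEzh2 libraries were lowest, 1.33-fold below scr (log2 −0.42 ± 0.07, adjusted p = 0.000172) and 1.33-fold below DMSO (−0.42 ± 0.07, adjusted p = 0.000523), and DZNep was 1.21-fold below DMSO (−0.27 ± 0.07, adjusted p = 0.00227). GSK126 and DMSO overlapped (0.04, adjusted p = 0.761), as did scr and DMSO (0.00, adjusted p = 0.998). Ephb4 shares 33 bases of exon with Zan on the other strand.

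Ephb2 read 8.39, 8.57 and 7.64 in DMSO, 8.88, 8.5 and 8.49 with GSK126, 11.4, 11.1 and 10.5 with DZNep, 8.09, 8.37 and 8.26 in scr, and 7.83, 7.7 and 7.74 with siEzh2 CPM. The DZNep libraries lay above all others, 1.34-fold higher than DMSO (0.43 ± 0.07, adjusted p = 3.12e-05). The other groups spanned 7.64 to 8.88 CPM. Ephb6, a member whose kinase domain lacks activity, read 2.46, 2.24 and 2.13 in DMSO, 2.9, 3.04 and 3.31 with GSK126, 1.71, 1.67 and 1.4 with DZNep, 1.83, 1.42 and 0.978 in scr, and 2.14, 2.41 and 2.08 with siEzh2 CPM. It was −0.51 ± 0.17 with DZNep (adjusted p = 0.0121), a call lost without DZNep replicate 3 (adjusted p = 0.0617). It was 0.62 ± 0.17 with siEzh2 against scr (adjusted p = 0.0104), with scr at −0.66 ± 0.17 against DMSO (adjusted p = 0.00592). Against DMSO, siEzh2 stood at −0.04 (adjusted p = 0.917), with no direction to report. EphB receptors had 0 of 3 called with GSK126 by edgeR, with 1 at an unadjusted p under 0.05 (Ephb6, 0.45, adjusted p = 0.0611) and 0 by DESeq2.

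Slit2, the repellent that leads its family (ENSMUSG00000031558, chromosome 5, 47983138 to 48307733, plus strand), was higher with GSK126 and lower with DZNep. It read 22.4, 20.3 and 20.1 in DMSO, 35.1, 33.8 and 34.8 with GSK126, 8.17, 7.79 and 9.23 with DZNep, 25.3, 24.8 and 24.7 in scr, and 20.3, 20 and 21.4 with siEzh2 CPM. GSK126 was the highest group and DZNep the lowest, and neither overlapped any other group. The rise with GSK126 was 1.65-fold (log2 0.73 ± 0.06, adjusted p = 1.33e-07) and the fall with DZNep was 2.48-fold (−1.31 ± 0.07, adjusted p = 3e-12). In scr it was 1.19-fold above DMSO (0.26 ± 0.06, adjusted p = 0.00482) and with siEzh2 1.21-fold below scr (−0.28 ± 0.06, adjusted p = 0.00281), which left siEzh2 at −0.02 ± 0.06 against DMSO (adjusted p = 0.878). Slit1 had 46 counts over all 15 libraries and Slit3 had 0.

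Robo1, the leading Slit receptor (ENSMUSG00000022883, chromosome 16, 72308306 to 73046095, plus strand), moved in the same direction as its ligand with both compounds, at a smaller fold. It read 97, 102 and 83.3 in DMSO, 129, 128 and 128 with GSK126, 81.7, 75.1 and 76.2 with DZNep, 104, 110 and 109 in scr, and 97.9, 95.1 and 97.7 with siEzh2 CPM. GSK126 lay above every other library and DZNep below every other library. The rise with GSK126 was 1.37-fold (log2 0.45 ± 0.06, adjusted p = 3.21e-05) and the fall with DZNep 1.21-fold (−0.27 ± 0.06, adjusted p = 0.000547). The scr level was 1.15-fold that of DMSO (0.20 ± 0.06, adjusted p = 0.0176), a call lost without DMSO replicate 3 (adjusted p = 0.0921), without scr replicate 2 (0.068), without scr replicate 3 (0.0594) and in a fit of the compared groups alone (0.0842). With siEzh2 it was −0.16 against scr (adjusted p = 0.0633).

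Robo2 (ENSMUSG00000052516, chromosome 16, 73891839 to 74411825, minus strand) lies on the same chromosome as Robo1 and Epha3. It read 0.837, 1.28 and 0.724 in DMSO, 1.98, 2.17 and 2.26 with GSK126, 2.3, 2.46 and 2.24 with DZNep, 0.655, 0.466 and 0.412 in scr, and 1.16, 0.887 and 1.19 with siEzh2 CPM, and both compound groups lay above all DMSO, scr and siEzh2 libraries. Robo2 was called higher in each of the 3 main comparisons, 2.3-fold with GSK126 (log2 1.2 ± 0.19, adjusted p = 0.000207), 2.51-fold with DZNep (1.33 ± 0.19, adjusted p = 3.9e-06) and 2.07-fold with siEzh2 against scr (1.05 ± 0.24, adjusted p = 0.00232). In scr it was 1.78-fold below DMSO (−0.83 ± 0.23, adjusted p = 0.0122), a call lost without DMSO replicate 2 (adjusted p = 0.0865), without scr replicate 2 (0.0521), without scr replicate 3 (0.0517) and in a fit of the compared groups alone (0.0575). Against DMSO, siEzh2 was at 0.22 ± 0.21 (adjusted p = 0.541) and did not pass. DZNep and GSK126 were not called apart (0.12 ± 0.17, adjusted p = 0.538).

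Robo3, a receptor known from commissural axons, rose with DZNep. It read 0.0956, 0.163 and 0.108 in DMSO, 0.161, 0.138 and 0.243 with GSK126, 0.561, 0.429 and 0.702 with DZNep, 0.308, 0.275 and 0.154 in scr, and 0.275, 0.304 and 0.0914 with siEzh2 CPM, from 18 counts over the DMSO libraries and 68 over those of DZNep. The rise was 4.61-fold (log2 2.2 ± 0.39, adjusted p = 5.91e-05), and no DZNep library overlapped another group. Robo4, an endothelial Robo that lies beside Robo3 on chromosome 9, was not tested, with 18 counts in all, 13 of them in DZNep libraries. The endothelial marker sum was also high with DZNep, and with siEzh2, where Robo4 had 2 counts, as in scr. Of the 8 endothelial markers only 1, Vwf, reached 1 CPM in these groups. A link between that sum and the Robo4 counts was not tested.

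Ntn1 had the largest fold of the 28 genes with GSK126. Netrin-1 is the classic secreted netrin and a ligand of Dcc, neogenin and the Unc5 receptors (ENSMUSG00000020902, chromosome 11, 68209364 to 68400823, minus strand). It read 0.215, 0.419 and 0.308 in DMSO, 1.85, 1.96 and 2.19 with GSK126, 0.177, 0.143 and 0.0453 with DZNep, 0.289, 0.275 and 0.309 in scr, and 0.153, 0.228 and 0.343 with siEzh2 CPM. The GSK126 libraries started at 1.85 CPM, where the other 12 reached at most 0.419 CPM. The rise was 6.32-fold (log2 2.66 ± 0.24, adjusted p = 2.42e-07), on 47 counts over the DMSO libraries and 244 over those of GSK126. DZNep was 2.64-fold below DMSO (−1.4 ± 0.41, adjusted p = 0.00604), on 14 counts, and that call was lost without DZNep replicate 3 (adjusted p = 0.0516). The siEzh2 and scr libraries overlapped (−0.22, adjusted p = 0.712).

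Ntn4, a netrin of basement membranes, read 0.359, 0.536 and 0.524 in DMSO, 0.322, 0.507 and 0.34 with GSK126, 0.0885, 0.191 and 0.136 with DZNep, 0.0385, 0.169 and 0.0772 in scr, and 0.0917, 0.203 and 0.114 with siEzh2 CPM. It was lower than DMSO with DZNep (3.34-fold, log2 −1.74 ± 0.39, adjusted p = 0.000674), in scr (4.95-fold, −2.31 ± 0.41, adjusted p = 0.000296) and with siEzh2 (3.42-fold, −1.77 ± 0.40, adjusted p = 0.00512). Between siEzh2 and scr it did not pass (0.53, adjusted p = 0.528). Thus 0 of 2 tested netrins were called with siEzh2 against scr by edgeR, with 0 at an unadjusted p under 0.05 and 0 by DESeq2. The summed netrin level went from 0.183 ± 0.0507 RPKM in DMSO to 0.423 ± 0.0364 with GSK126, and its leading gene was Ntn4 in DMSO (68.9%) and Ntn1 with GSK126 (75.4%). In scr, with a sum of 0.075 RPKM, Ntn1 had the larger share (61.9%). With siEzh2, with a sum of 0.0783 RPKM, Ntn1 (49.1%, 0.0384 ± 0.0152 RPKM) and Ntn4 (0.0364 ± 0.0157) lay within each other's spread. Ntn4 had the larger share with DZNep (58.2%), at 0.037 ± 0.0137 against 0.0194 ± 0.0109 RPKM for Ntn1. Counts of Ntn1 and Ntn4 were few: 40 and 13 in scr, 29 and 16 with siEzh2, and 14 and 17 with DZNep.

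Neo1 and Unc5c, the 2 most abundant netrin receptors, rose with GSK126 and were not called in the other 3 comparisons with a control. Neo1, neogenin (ENSMUSG00000032340, chromosome 9, 58874687 to 59036441, minus strand), also binds repulsive guidance molecules. It read 277, 265 and 235 in DMSO, 336, 329 and 333 with GSK126, 249, 256 and 253 with DZNep, 262, 287 and 291 in scr, and 292, 275 and 298 with siEzh2 CPM. The GSK126 libraries lay above all others and were 1.29-fold DMSO (log2 0.36 ± 0.06, adjusted p = 0.00027). Unc5c (ENSMUSG00000059921, chromosome 3, 141465216 to 141834924, plus strand) read 233, 215 and 181 in DMSO, 270, 262 and 270 with GSK126, 203, 209 and 208 with DZNep, 240, 240 and 227 in scr, and 228, 226 and 251 with siEzh2 CPM. Again the GSK126 libraries were highest, 1.28-fold DMSO (0.35 ± 0.07, adjusted p = 0.00159). DMSO replicate 3 was the lowest library for both genes, but each call held without it.

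Unc5b, a receptor of vessels and of cell survival signalling (ENSMUSG00000020099, chromosome 10, 60762593 to 60831581, minus strand), was high in scr. It read 7.82, 6.92 and 6.35 in DMSO, 8.82, 7.65 and 9.02 with GSK126, 4.6, 3.98 and 4.07 with DZNep, 18.8, 18.7 and 18.6 in scr, and 7.95, 9.1 and 9.16 with siEzh2 CPM. The scr libraries lay between 18.6 and 18.8 CPM, where no other library passed 9.16 CPM. Against scr siEzh2 was 2.13-fold lower (log2 −1.09 ± 0.09, adjusted p = 1.13e-08), scr was 2.67-fold above DMSO (1.42 ± 0.09, adjusted p = 5.7e-10), and siEzh2 was 1.25-fold above DMSO (0.33 ± 0.09, adjusted p = 0.0229). The direction with siEzh2 therefore turned with the control, as it did for Epha3. DZNep lowered Unc5b 1.66-fold (−0.73 ± 0.10, adjusted p = 2.6e-06), and GSK126 was at 0.28 (adjusted p = 0.0513).

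Unc5a read 0.646, 0.745 and 0.847 in DMSO, 0.751, 0.507 and 0.559 with GSK126, 0.059, 0.191 and 0.136 with DZNep, 0.944, 0.784 and 0.618 in scr, and 0.611, 0.355 and 0.48 with siEzh2 CPM. The DZNep libraries were lowest, with 16 counts against 114 in DMSO, a fall of 5.58-fold (log2 −2.48 ± 0.34, adjusted p = 2.89e-06). The lower value with siEzh2 against scr (−0.73 ± 0.26, adjusted p = 0.0471) was lost without scr replicate 1 (adjusted p = 0.214), without scr replicate 2 (0.0937), without siEzh2 replicate 2 (0.193), without siEzh2 replicate 3 (0.113), with no low-count filter (0.0504), with a replicate block (0.0588), in a fit of the compared groups alone (0.0544) and by DESeq2 (0.105), and against DMSO it was −0.66 (adjusted p = 0.101). Dcc, the attractive receptor, was low, with 0.359, 0.163 and 0.185 in DMSO, 0.402, 0.392 and 0.365 with GSK126, 0.649, 0.501 and 0.634 with DZNep, 0.135, 0.254 and 0.129 in scr, and 0.306, 0.405 and 0.502 with siEzh2 CPM. It was higher with DZNep (2.57-fold, 1.36 ± 0.31, adjusted p = 0.000765) and with siEzh2 against scr (2.35-fold, 1.23 ± 0.36, adjusted p = 0.0146). The siEzh2 call of Dcc was lost without scr replicate 1 (adjusted p = 0.0692), without scr replicate 3 (0.0535) and without siEzh2 replicate 3 (0.0823), and against DMSO it was 0.84 (adjusted p = 0.101).

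**Figure D4:**
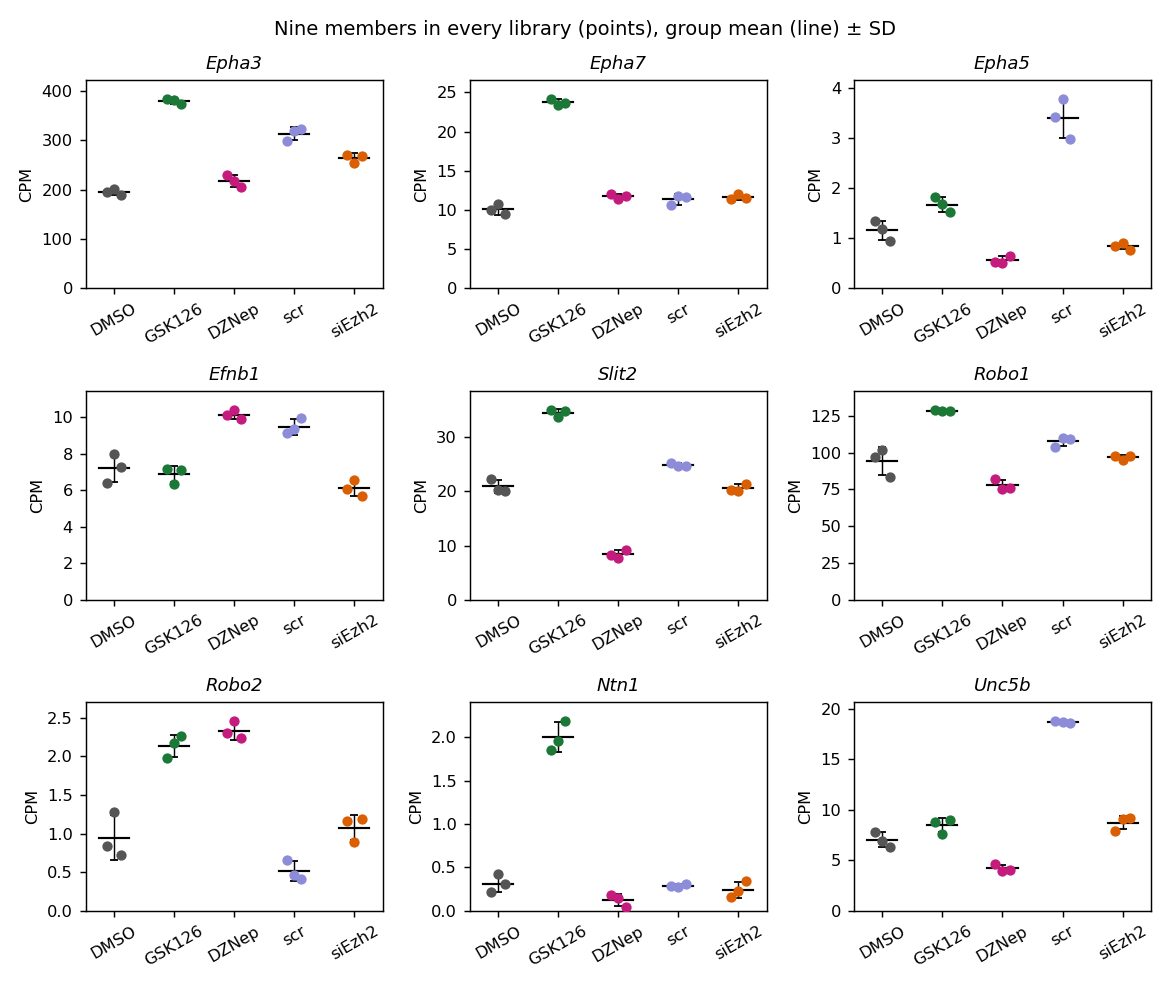
CPM of 9 genes in each library (points), with group means (lines) and SD. Epha3, Epha7, Slit2, Robo1 and Ntn1 are highest with GSK126, and Epha5 and Unc5b are highest in scr, where Unc5b reads 18.7 ± 0.128 CPM.

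Because scr and DMSO differed in 10 of the 28 genes, siEzh2 was also compared with DMSO, a choice made after the values were seen. That comparison called 7 of 28 genes, 2 higher and 5 lower, where 14.2% of all genes were called, 6.41% higher and 7.76% lower. Higher were Epha3 (0.43) and Unc5b (0.33), and lower were Efna3 (−0.93), Epha2 (−1.32), Epha4 (−0.36), Ephb4 (−0.42) and Ntn4 (−1.77). Efna3, Epha2, Epha4 and Ephb4 were thus lower with siEzh2 against either control. Of these, Epha4 only just passed against DMSO (adjusted p = 0.0499) and lost its call against scr without scr replicate 2 (adjusted p = 0.0519). Epha2 rested on 20 counts over the siEzh2 libraries. Of the 15 genes called against scr, Epha3 and Unc5b changed sign with the control. Ephb6 (−0.04 ± 0.16, adjusted p = 0.917), Efna5 (0.01 ± 0.07, adjusted p = 0.958), Slit2 (−0.02 ± 0.06, adjusted p = 0.878) and Efnb3 (−0.12 ± 0.16, adjusted p = 0.677) showed no direction against DMSO. Their values lay within their standard error of 0. Efnb1, Epha5, Robo2, Dcc and Unc5a kept their sign but did not pass. The arms, their controls and any handling that differed between the arms cannot be told apart.

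GSK126 and DZNep, given at the same 2 µM, were compared directly. DZNep against GSK126 called 22 of 28 genes (78.6%), 4 higher and 18 lower, where 64.6% of all genes were, 32.9% higher and 31.7% lower. The higher ones were Efnb1 (0.56), Efnb3 (0.44), Ephb2 (0.35) and Robo3 (1.63). The largest lower difference was that of Ntn1, 16.7-fold lower with DZNep (log2 −4.06 ± 0.31, adjusted p = 5.32e-10), followed by Unc5a (−2.15 ± 0.37), Epha1 (−2.06 ± 0.27) and Slit2 (−2.04 ± 0.07). Epha7 was 2.02-fold lower (−1.02 ± 0.07) and Epha3 1.74-fold lower (−0.80 ± 0.05). The Efnb3 call was lost without GSK126 replicate 3 (adjusted p = 0.0543) and without DZNep replicate 1 (0.058). The Efna3 call (−0.50, adjusted p = 0.0277) was lost without GSK126 replicate 2 (adjusted p = 0.092), without GSK126 replicate 3 (0.0541), without DZNep replicate 2 (0.138), with no low-count filter (0.069) and by DESeq2 (0.0722).

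The siEzh2 effect (against scr) and the GSK126 effect (against DMSO) differed in 13 of 28 genes, 1 higher and 12 lower with siEzh2, where 20.7% of all genes differed, 10.1% higher and 10.5% lower. The differences were largest for Ntn1 (−2.88 ± 0.44, adjusted p = 8e-05), Epha5 (−2.56 ± 0.23, adjusted p = 1.1e-07), Unc5b (−1.37 ± 0.13, adjusted p = 1.47e-07), Epha3 (−1.2) and Epha7 (−1.2). Efna5 was the higher one (0.41 ± 0.09, adjusted p = 0.00404). The scr level enters each of these, and the scr values given above for Epha5, Unc5b, Epha3 and Efna5 stand apart from DMSO, while those of Ntn1 and Epha7 overlap DMSO.

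The DZNep and the siEzh2 effects differed in 14 of 28 genes, 7 higher and 7 lower with DZNep, where 51.1% of all genes differed, 25.3% higher and 25.8% lower. Robo3 (2.42 ± 0.58), Efnb1 (1.13 ± 0.12), Efnb3 (1.06 ± 0.21) and Epha5 (1.0 ± 0.27) were higher. Ntn4 (−2.27 ± 0.69), Epha1 (−1.94 ± 0.36), Unc5a (−1.75 ± 0.45), Efna2 (−1.31 ± 0.29) and Slit2 (−1.03 ± 0.09) were lower. The Ntn4 difference (adjusted p = 0.01) was lost without siEzh2 replicate 2 (adjusted p = 0.063), and that of Unc5b (0.36, adjusted p = 0.0296) was lost without DMSO replicate 2 (adjusted p = 0.0511), without DMSO replicate 3 (0.0768), without DZNep replicate 1 (0.0882), without scr replicate 1 (0.0565), without scr replicate 3 (0.0505) and without siEzh2 replicate 1 (0.0781).

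Of 26 tested genes of Eph signalling (28 listed: adaptors, exchange factors, kinases and the ephrin sheddase), 7 rose and 0 fell with GSK126 by edgeR (26.9% called, where 12.7% of all genes were, median log2 0.13; 1 lower at an unadjusted p under 0.05 and 0 by DESeq2). With DZNep 9 rose and 7 fell (61.5%, all genes 62.3%, median 0.01), and with siEzh2 against scr 3 rose and 4 fell (26.9%, all genes 26.1%, median −0.03), so the shares called with DZNep and siEzh2 were near those of all genes. With GSK126, Chn1, a Rac-regulating protein downstream of Epha4, rose from 15.8 to 27.7 CPM (0.81 ± 0.07, adjusted p = 1.28e-07), and the phosphatase Ptpn13 (0.57 ± 0.10) and the kinase Fyn (0.22 ± 0.04) rose as well. With DZNep the exchange factors Tiam1 (0.76 ± 0.05) and Itsn1 (0.61 ± 0.04) and the scaffold Pick1 (0.54 ± 0.06) rose. With siEzh2 against scr the exchange factors Vav2 (−0.65 ± 0.08) and Arhgef15 (−2.4 ± 0.39) and the sheddase Adam10 (−0.30 ± 0.06) fell. Against DMSO Vav2 stood at −0.15 (adjusted p = 0.236) and Arhgef15 at −0.15 (adjusted p = 0.892), and neither passed.

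Of 23 tested Slit-Robo signalling genes, 5 rose and 0 fell with GSK126 by edgeR (21.7%, all genes 12.7%, median 0.05; 1 lower at an unadjusted p under 0.05 and 0 by DESeq2). With DZNep 13 rose and 4 fell (73.9%, all genes 62.3%, median 0.19), and with siEzh2 against scr 5 rose and 4 fell (39.1%, all genes 26.1%, median 0.05). Enah, an actin regulator that Robo recruits, rose with GSK126 (0.30 ± 0.05) and siEzh2 (0.32 ± 0.05). Flrt3, a Robo1 co-receptor, rose with GSK126 (0.45 ± 0.08), DZNep (1.28 ± 0.08) and siEzh2 (0.57 ± 0.09). Ext1, which builds heparan sulphate, rose with GSK126 (0.21 ± 0.05), a call lost in a fit of the compared groups alone (adjusted p = 0.0648). With DZNep the proteoglycan Sdc3 fell from 60.9 to 28.3 CPM (−1.11 ± 0.07) and Srgap1, a Robo effector, rose (0.80 ± 0.08). Vasp fell with siEzh2 (−0.40 ± 0.07).

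Of 19 tested netrin signalling genes (25 listed), 2 rose and 1 fell with GSK126 (15.8%, all genes 12.7%, median 0.03). With DZNep 7 rose and 6 fell (68.4%, all genes 62.3%, median 0.03), and with siEzh2 against scr 4 rose and 3 fell (36.8%, all genes 26.1%, median −0.04). Rgma, a ligand of neogenin, fell with GSK126 (−0.41 ± 0.07) and with DZNep, from 50.8 to 17 CPM (−1.58 ± 0.08). Ablim1, an actin-binding protein, rose with DZNep (1.48 ± 0.05) and with siEzh2 against scr (1.48 ± 0.05), where scr stood at 31.4 CPM and DMSO at 58.8. Its rise with GSK126 (0.20 ± 0.05, adjusted p = 0.0166) was lost without DMSO replicate 3 (adjusted p = 0.0781), without GSK126 replicate 1 (0.0766), without GSK126 replicate 3 (0.0512) and in a fit of the compared groups alone (0.0685). The tubulin Tubb3 rose with DZNep from 41 to 147 CPM (1.84 ± 0.07). The Dcc adaptor Appl1 rose with GSK126 (0.31 ± 0.07) and siEzh2 (0.35 ± 0.07), and the exchange factor Trio rose with siEzh2 (0.67 ± 0.09). Against DMSO the siEzh2 values of Trio (0.17, adjusted p = 0.192) and Appl1 (0.13, adjusted p = 0.217) did not pass. In scr against DMSO the 3 lists had 8 of 26 (30.8%), 5 of 23 (21.7%) and 6 of 19 (31.6%) genes called, near the 25.9% of all genes.

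The other 10 genes were under the count filter. Epha6, Epha8, Slit3 and Unc5d had 0 counts in all 15 libraries, which allows up to 3 counts, or 0.0462 to 0.0918 CPM, in a library. Epha10 had 29 counts in all, Ephb1 3, Ephb3 38, Slit1 46, Robo4 18 and Ntn5 6. Ephb3 had 0 counts with siEzh2, 5 in scr, 12 in DMSO, 10 with GSK126 and 11 with DZNep. Epha10 had 11 with siEzh2, 11 in scr, 2 in DMSO, 3 with GSK126 and 2 with DZNep. All 3 counts of Ephb1 were in DZNep libraries. At this depth no difference in these 10 genes was tested. Such floors cover counting error only.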

How the data were processed

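The values were whole-number read counts per gene for 15 libraries, as the authors deposited them, with no normalization. Per the submitters' processing notes, STAR and featureCounts were used with GRCm38. Their versions, the annotation and the strand setting were not given in the sources used here, so reads of overlapping genes on opposite strands cannot be told apart. Of 46078 gene IDs, 45229 matched GENCODE M21, which gave symbols, coordinates and exon lengths, and unmatched IDs held 0.0588% of counts. The 38 genes, the pathway and marker lists (78 and 45 symbols) and the tests were chosen with earlier results of these data known.

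The main test was edgeR's quasi-likelihood F-test (edgeR 4.0.16, R 4.3.3; TMM scaling, robust estimation, low-count filter, 15152 genes kept), in 1 fit of 15 libraries with the group as the sole term. Benjamini-Hochberg adjustment ran over all genes kept, and a gene was called at an adjusted p under 0.05. Fold changes are log2 ± standard error. CPM uses TMM-scaled library sizes, and RPKM divides it by exon length in kilobases. Values per library are given for genes with a mean of at least 1 CPM in some group or a called log2 change of at least 1, and for each pathway list the 3 called genes with the smallest p. Replicate numbers are not stated to pair libraries across groups. Same-numbered libraries deviated together with correlations between −0.176 and 0.243, so no pairing was used. The fit was also run on simulated counts. Changes were set there only in genes above a count limit, so the recovery of changes in genes with few counts was not tested. DESeq2 1.42.0, other scalings and filters, a replicate block, the compared groups alone and leaving out each library were tried. Promoter sequences are those of RefSeq.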

Additional observations from a re-analysis of the deposited data

Results flagged for a closer look

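Some genes moved in opposite directions under different treatments, with both effects and their difference called by edgeR. For the siEzh2 effect against the GSK126 effect these were Epha5 (difference −2.56, adjusted p = 1.1e-07), Epha3 (−1.2, adjusted p = 4.08e-10) and Slit2 (−1.0, adjusted p = 9.26e-08), all higher with GSK126 and lower with siEzh2 against scr. The scr level enters each of them. Against DMSO siEzh2 raised Epha3 (0.43), and Epha5 (−0.43) and Slit2 (−0.02) did not pass. Without GSK126 replicate 1 or DMSO replicate 3, among others, Epha5 was not called with GSK126 (adjusted p = 0.112 and 0.183).

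For the DZNep effect against the siEzh2 effect they were Efnb1 (1.13, adjusted p = 3.39e-07), Efnb3 (1.06, adjusted p = 0.000346) and Epha3 (0.40, adjusted p = 0.000125), higher with DZNep and lower with siEzh2 against scr, and Ephb6 (−1.13, adjusted p = 0.000566), the other way round. Against DMSO in place of scr, siEzh2 was above the control for Epha3 (0.43, adjusted p = 1.15e-05), and Efnb1 (−0.24, adjusted p = 0.0799), Efnb3 (−0.12, adjusted p = 0.677) and Ephb6 (−0.04, adjusted p = 0.917) did not pass, so none of the 4 opposite directions held with that control. The siEzh2 effect of Efnb3 and the DZNep effects of Ephb6 and Epha3 lost their call when some libraries were left out, as given with each gene in the report.

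For DZNep against GSK126, which share the DMSO control, they were Ntn1 (−4.06, adjusted p = 5.32e-10), Slit2 (−2.04, adjusted p = 2.75e-15), Epha5 (−1.56, adjusted p = 5.28e-07) and Robo1 (−0.73, adjusted p = 2.22e-09), higher with GSK126 and lower with DZNep. Each was lower in all 3 DZNep than in all 3 GSK126 libraries. The fall of Ntn1 with DZNep was not called without DZNep replicate 3 (adjusted p = 0.0516). The rise of Epha5 with GSK126 was not called without GSK126 replicate 1 (adjusted p = 0.112) or DMSO replicate 3 (0.183), among others. By DESeq2 it was not called either (adjusted p = 0.0532).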

How the results depend on the processing

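Over the 7 comparisons, 105 calls of a gene were made. Under the other settings named in the methods 0 of them changed sign and 17 lost the call when some library was left out, each named with its gene. Leaving out 1 library in turn gave 8 to 13 genes called with GSK126, 18 to 22 with DZNep, 12 to 14 with siEzh2 against scr, 8 to 12 in scr against DMSO, 20 to 22 for DZNep against GSK126, 13 to 14 for the siEzh2 minus the GSK126 effect and 13 to 15 for the DZNep minus the siEzh2 effect. With library totals alone all 105 calls held, and with no low-count filter 100, in fits of the compared groups alone 97 of 104 and by DESeq2 101 held. With a replicate block the counts in the same order were 9, 21, 14, 10, 22, 14 and 14, and 103 of 105 calls held. Of 91 gene and comparison pairs that were not called, 32 changed sign under some alternative and 14 were called under one. Over all genes, GSK126 called 1923 genes, 1131 in a fit of the compared groups, and 1183 to 2490 with 1 library left out.

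With DMSO in place of scr as the control of siEzh2, added after the values were seen, 7 genes were called in place of 15, and 2148 of all genes in place of 3953. Epha3 (0.43) and Unc5b (0.33) changed sign. Ephb6 (−0.04, adjusted p = 0.917), Efna5 (0.01, adjusted p = 0.958), Slit2 (−0.02, adjusted p = 0.878) and Efnb3 (−0.12, adjusted p = 0.677) showed no direction. The cause was not tested. Genes with few counts, such as Ntn1, Ntn4, Robo3, Dcc and Epha2, are limited by depth.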
